A study of Mus musculus with 6 samples.

Results

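The amino acid carriers are the genes of 7 solute carrier families, Slc1, Slc3, Slc6, Slc7, Slc36, Slc38 and Slc43, whose proteins move amino acids and some related molecules across cell membranes. All protein-coding genes of the deposited table whose symbol belongs to one of these families were taken, which gave 64 of 54532 genes. One of them, Slc7a6os, is not a carrier: it is the opposite-strand neighbour of Slc7a6 and came in through its symbol, so 63 members are carriers or carrier subunits. They were followed in poly-A RNA sequencing libraries of mouse distal colon, 3 labelled knockout (KO 1, KO 2 and KO 3, genotype Itgbl1 -/-) and 3 labelled wild-type (WT 1, WT 2 and WT 3). All 6 came from colitis induced by 3% dextran sulfate sodium of 36 to 50 kDa (DSS) in the drinking water for 7 days. Drinking DSS damages the lining of the colon, and no library of untreated colon was compared. The labels used here give neither the strain and age of the mice, nor the way the Itgbl1 allele was made, nor whether each library is a separate animal. The p-values therefore rest on the spread among these 6 libraries, which may be technical.

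Itgbl1 itself, the gene of a secreted relative of the integrin beta chains, had 12, 4 and 10 reads in KO 1, KO 2 and KO 3, against 19, 6 and 5 reads in WT 1, WT 2 and WT 3. The counts overlap and do not bear out the knockout label, so the groups are called by their labels throughout. Total counts lay between 13326970 and 18321389 per library. Mitochondrial genes took 12.8% of the counts in KO 3, against 3.53% to 4.88% in the other 5 libraries. Markers of epithelium were low in KO 1 and KO 3: 11 general epithelial genes summed to 1125, 7400 and 53.6 CPM (reads scaled to a common library size) in KO 1, KO 2 and KO 3, against 14703, 21040 and 16023 CPM in WT 1, WT 2 and WT 3. KO 2 kept more epithelial RNA than KO 1 and KO 3. RNA of 6 of 7 listed digestive enzymes of the exocrine pancreas summed to 66.4, 1154 and 2.18 CPM in KO 1, KO 2 and KO 3, against 1.72, 0.759 and 0.295 CPM in WT 1, WT 2 and WT 3. RNA of these 6 was thus highest in KO 2 and also present in KO 1. The 7th, Cela1, was highest in WT 2. With it the sums were 86.9, 1318 and 13.6 CPM in KO 1, KO 2 and KO 3, against 161, 446 and 125 CPM in WT 1, WT 2 and WT 3.

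In the intestine, absorptive cells take amino acids from the lumen through carriers of the apical membrane that are driven by sodium, chloride or protons, and release them to the blood through exchangers of the basolateral membrane. Several exchangers are heterodimers, in which a light chain of family Slc7 carries the substrate and a heavy chain of family Slc3 brings it to the membrane. Immune, stromal and nerve cells use other members of the same families, for example to import cystine for glutathione, arginine for nitric oxide and leucine for growth signalling, or to clear transmitters.

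The carriers took 0.232%, 0.141% and 0.200% of all counts in KO 1, KO 2 and KO 3, against 0.216%, 0.311% and 0.265% in WT 1, WT 2 and WT 3. Of the 64 members, 44 passed the filter on low counts. No member passed an adjusted p of 0.05 in edgeR's quasi-likelihood test, and neither did any of the 16861 genes tested (0%). At an unadjusted p under 0.05, 11 members (25.0%) were higher in the libraries labelled knockout, against 11.8% of all genes tested, and 9 members (20.45%) were lower, against 12.3% of all genes tested. The lowest library of one group lay above the highest of the other for 10 members that were higher (22.73%, with 15.0% among all genes tested) and for 9 that were lower (20.45%, with 17.3% among all). The median log2 ratio of the members was 0.31, beside 0.06 over all genes tested, with 24 members above 0 and 20 below. That median was 0.07 with limma-voom (0.02 over all genes), 0.09 without KO 1 (0.02 over all) and 0.49 without WT 3 (0.05 over all). The lower side held the strongest ratios: 6 of the 9 members lower without overlap had log2 ratios between -5.88 and -3.34. The 10 higher ones lay between 0.79 and 3.92. Among the lower ones, Slc7a9 and Slc6a20a had 16 and 6 reads in all in the KO libraries and passed the filter through the WT libraries. On the higher side, Slc38a3 had 29 reads in all in the WT libraries and passed through the KO libraries. The size of such ratios is uncertain.

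The counts depended on the tool and on single libraries. DESeq2 put 15 members past an adjusted p of 0.05, 6 higher and 9 lower, beside 10.6% of all genes it tested. Limma-voom with sample quality weights put 9 past it, 2 higher and 7 lower, beside 8.27% of all genes, and limma-voom without weights put none past it. Without KO 2 the quasi-likelihood test called 9 members, 3 higher and 6 lower, beside 10.4% of all genes. The 11 members higher at an unadjusted p under 0.05 became 17 without KO 2 (37.0% of those tested, beside 13.9% of all genes), 6 without WT 2 (11.8%, beside 5.58% of all) and 7 without WT 3 (14.6%, beside 6.74% of all). The 10 that were higher without overlap became 21 without KO 2 (45.7%, beside 23.7% of all genes), a share that was 15.0% with all 6 libraries.

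**Figure D1:**
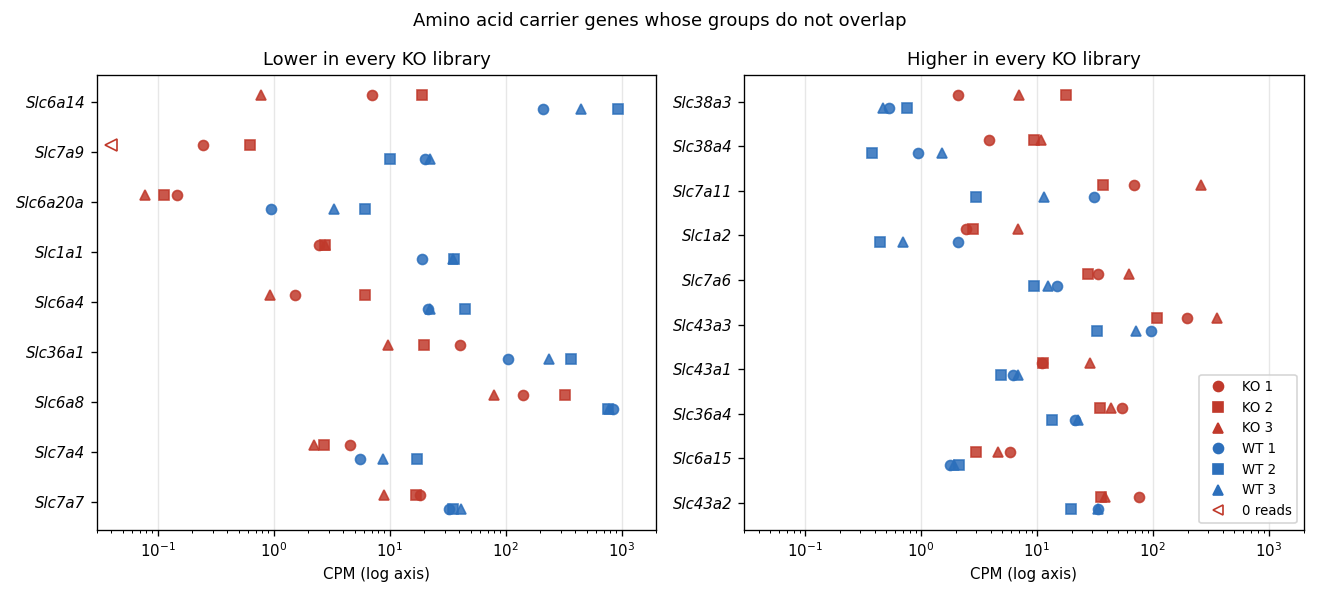
CPM on a log axis of the 19 carrier genes whose libraries labelled KO (red) and WT (blue) do not overlap, 9 lower on the left and 10 higher on the right, with 1 symbol per library and an open triangle at the left edge for 0 reads. Slc6a14 and Slc7a9 show the widest gaps among the lower genes, and Slc38a3 among the higher ones.

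The carriers of acidic amino acids were led by Slc1a1, a glutamate, aspartate and cysteine carrier of the epithelial apical membrane and of neurons (EAAT3; ENSMUSG00000024935, chr19:28835049-28913960, plus strand, GRCm38). Slc1a1 had 2.47, 2.80 and 2.80 CPM in KO 1, KO 2 and KO 3, against 19.1, 36.0 and 35.3 CPM in WT 1, WT 2 and WT 3. The libraries labelled knockout lay within 1.13-fold of each other and all were far below the lowest one labelled wild-type, WT 1. The log2 ratio was -3.48 ± 0.36 (± SE, as for all log2 ratios here), with a 95% interval of -4.32 to -2.65 and an adjusted p of 0.094, and every alternative kept the direction, with log2 ratios between -3.75 and -3.34. Of the 6 members with log2 ratios between -5.88 and -3.34, Slc1a1 had the smallest SE. It shares 2631 exon bases with 4430402I18Rik on the other strand, a gene with 57 reads over the 6 libraries. In the bulk tissue, fewer cells that carry a transcript and less of it per cell cannot be told apart.

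The promoter of Slc1a1 is shown because its difference had this smallest SE. It covers 250 bases before and 50 after the transcription start in RefSeq, 5′ to 3′ on the gene's strand, at chr19:28834885-28835184 (plus strand, GRCm38.p6), and all letters are lower case because none of 4 searched motifs matched. The motifs were TGATGNAA for ATF4-type amino acid response elements, TGACNNNGC for NRF2-type antioxidant response elements, CAAAGTC for HNF4 and TTTATGG for CDX2, searched on both strands.
Slc1a1: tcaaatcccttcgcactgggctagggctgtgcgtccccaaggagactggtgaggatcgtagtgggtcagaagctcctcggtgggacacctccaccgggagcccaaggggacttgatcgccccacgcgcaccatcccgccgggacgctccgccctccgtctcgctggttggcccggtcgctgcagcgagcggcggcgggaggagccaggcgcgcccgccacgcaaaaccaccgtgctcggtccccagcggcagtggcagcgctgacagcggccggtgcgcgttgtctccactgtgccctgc
Among 32851 RefSeq promoters of this length, 3.969% held TGATGNAA, 12.39% TGACNNNGC, 4.441% CAAAGTC and 2.749% TTTATGG. RefSeq gave 67 promoters for 46 of the members, of which 5, 11, 2 and 1 held them in the same order. These belong to 4, 9, 2 and 1 genes. Overlapping windows count a shared site more than once, as for TGATGNAA in Slc7a7 and TGACNNNGC in Slc7a6. A match describes letters only, and a missing match says only that these letters are not in this window.

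The other acidic carriers were at low levels. Slc1a2, the main glutamate carrier of astroglia (GLT-1), had 2.47, 2.80 and 6.92 CPM in KO 1, KO 2 and KO 3, against 2.08, 0.443 and 0.708 CPM in WT 1, WT 2 and WT 3. Its groups did not overlap, although KO 1 and WT 1 were close, and the log2 ratio of 1.90 ± 0.74 had an adjusted p of 0.18 and became 1.26 without KO 3. Slc1a7, a glutamate carrier best known from the retina, had 2.92, 1.83 and 0.155 CPM in the libraries labelled knockout and 1.49, 0.759 and 0.944 CPM in those labelled wild-type, with overlap. KO 1 decided the sign of its log2 ratio of 0.63 ± 0.88 (adjusted p = 0.68), which was -0.05 without that library. Slc1a3, the glial carrier GLAST, overlapped at a log2 ratio of -0.04 whose sign was not stable, and Slc1a6 was under the filter.

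The Slc6 carriers of amino acids held the member with the strongest ratio. Slc6a14 encodes a sodium- and chloride-driven apical carrier of neutral and cationic amino acids (ATB0,+; ENSMUSG00000031089, chrX:21714896-21742355, plus strand), whose transcript is known to be raised in human ulcerative colitis. Slc6a14 had 7.02, 18.9 and 0.777 CPM in KO 1, KO 2 and KO 3, against 211, 925 and 446 CPM in WT 1, WT 2 and WT 3. The libraries varied widely within both groups, 24.4-fold among those labelled knockout and 4.38-fold among those labelled wild-type, but the highest KO library was still far below the lowest WT library. The log2 ratio was -5.88 ± 1.23 with an adjusted p of 0.094. In TPM (reads per length of the gene, scaled to a common total), Slc6a14 averaged 6.68 ± 6.21 in the libraries labelled knockout and 385 ± 261 in those labelled wild-type (SD, n = 3 each). It was the most abundant of the 64 members in the wild-type libraries by mean TPM and ranked 24 in the libraries labelled knockout. Its first place came from WT 2: Slc6a14 had 143, 662 and 351 TPM in WT 1, WT 2 and WT 3. The creatine carrier gene Slc6a8 had 377, 362 and 405 TPM there and was above Slc6a14 in WT 1 and WT 3.

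Slc6a20a, a carrier of proline and other imino acids (SIT1), had 0.148, 0.114 and 0.0777 CPM in KO 1, KO 2 and KO 3, against 0.951, 6.20 and 3.30 CPM in WT 1, WT 2 and WT 3. These are 6 reads in all in the 3 libraries labelled knockout and 170 in those labelled wild-type, without overlap, and the log2 ratio was -4.81 ± 0.88 (adjusted p = 0.094). Its neighbour Slc6a20b shares a stretch of 233 bases with it at 98.3% identity and had 21 reads over the 6 libraries, so a read of that stretch could be assigned to either. Slc6a15, a carrier of branched-chain amino acids and proline known from neurons, pointed the other way, with 5.83, 2.97 and 4.59 CPM in the libraries labelled knockout against 1.78, 2.15 and 1.95 CPM in those labelled wild-type. Every KO library was above every WT library, by a log2 ratio of 1.18 ± 0.43 (adjusted p = 0.16). Slc6a19, the main neutral amino acid carrier of the small intestinal brush border, was named after its values were seen: it had 1.09, 0.801 and 0 CPM in KO 1, KO 2 and KO 3, against 0.594, 0.633 and 1.36 CPM in WT 1, WT 2 and WT 3. It overlapped and was near absent in this distal tissue in both groups, at a log2 ratio of -0.41 ± 1.02 that turned to 0.10 without KO 3 and 0.06 without WT 3.

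The proton-coupled family Slc36 split. Slc36a1, a carrier of glycine, alanine and proline at the apical membrane and on lysosomes (PAT1; ENSMUSG00000020261, chr11:55204350-55236330, plus strand), had 40.6, 19.8 and 9.71 CPM in KO 1, KO 2 and KO 3, against 106, 369 and 236 CPM in WT 1, WT 2 and WT 3. KO 1 was highest of its group and WT 1 lowest of the other, and they did not overlap. The log2 ratio was -3.34 ± 0.67 (adjusted p = 0.094), and Slc36a1 was ranked 16 by mean TPM in the libraries labelled knockout and 3 in those labelled wild-type. Slc36a4, a carrier of tryptophan and proline that acts mainly inside cells, had 54.2, 34.8 and 43.4 CPM in the libraries labelled knockout, against 21.5, 13.5 and 22.6 CPM in those labelled wild-type. All 3 KO libraries were above all 3 WT libraries, by a log2 ratio of 1.20 ± 0.30 (adjusted p = 0.10). Slc36a2, a related carrier of glycine and proline, overlapped at 7.61, 2.52 and 3.81 CPM in the libraries labelled knockout and 3.98, 1.33 and 4.07 CPM in those labelled wild-type (log2 ratio 0.57 ± 0.61 with all libraries and 0.01 without KO 1, adjusted p = 0.59 with all). Slc36a3 was under the filter.

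Among the Slc7 light chains, Slc7a9 and Slc7a7 were lower and Slc7a6 and Slc7a11 higher in every library labelled knockout. Slc7a9 encodes the apical exchanger of cystine and cationic amino acids (b0,+AT; ENSMUSG00000030492, chr7:35448796-35466036, plus strand). Slc7a9 had 5, 11 and 0 reads in KO 1, KO 2 and KO 3, which is 0.247, 0.629 and 0 CPM, against 20.3, 10.1 and 22.5 CPM in WT 1, WT 2 and WT 3. All 3 KO libraries were close to 0, and the log2 ratio was -5.82 ± 0.90 (adjusted p = 0.094). Slc7a7, the basolateral exchanger of cationic amino acids (y+LAT1), which macrophages also use, had 18.4, 16.8 and 8.94 CPM in KO 1, KO 2 and KO 3, against 32.6, 35.4 and 41.0 CPM in WT 1, WT 2 and WT 3. KO 3 was lowest, the groups did not overlap, and the log2 ratio was -1.30 ± 0.33 (adjusted p = 0.10). It shares 232 exon bases with Oxa1l on the other strand, and whether reads were counted by strand is not stated.

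Slc7a6, a close relative of Slc7a7 with wide expression (y+LAT2), had 33.8, 27.8 and 62.2 CPM in KO 1, KO 2 and KO 3, against 14.8, 9.49 and 12.5 CPM in WT 1, WT 2 and WT 3. KO 3 was highest, the groups did not overlap, and the log2 ratio was 1.75 ± 0.38 (adjusted p = 0.095), so these related y+L exchangers stood on opposite sides. The neighbour Slc7a6os, whose yeast counterpart takes part in nuclear import of RNA polymerase, overlapped at 26.7, 31.7 and 36.9 CPM in the libraries labelled knockout and 29.9, 26.6 and 21.9 CPM in those labelled wild-type (log2 ratio 0.28 ± 0.25, adjusted p = 0.52). The remaining light chains described here, Slc7a11, Slc7a5 and Slc7a8, were named after their values were seen. Slc7a11, the cystine and glutamate exchanger that feeds glutathione synthesis (xCT; chr3:49892526-50443614, minus strand), had 69.3, 37.5 and 257 CPM in KO 1, KO 2 and KO 3, against 31.1, 2.97 and 11.6 CPM in WT 1, WT 2 and WT 3. KO 3 was far above all others and WT 2 far below, and KO 2 was just above WT 1. The log2 ratio was 2.99 ± 1.02 (adjusted p = 0.15), 1.77 without KO 3 and 4.02 without WT 1. Its longest transcript holds 373 bases that are 96.2% identical to the tubulin gene Tuba1b, which had 21091 reads over the 6 libraries, so some reads could be assigned to either.

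Slc7a5, the leucine and large neutral amino acid exchanger LAT1, had 47.6, 15.6 and 41.6 CPM in the libraries labelled knockout and 16.3, 11.8 and 17.3 CPM in those labelled wild-type. KO 1 and KO 3 were above the WT libraries, KO 2 lay among them, and the log2 ratio was 1.21 ± 0.44 (adjusted p = 0.16). Slc7a8, the related epithelial exchanger LAT2, had 51.2, 18.6 and 28.0 CPM in the libraries labelled knockout and 23.0, 17.97 and 23.5 CPM in those labelled wild-type, again with KO 2 among the WT libraries (log2 ratio 0.60 ± 0.39 with all libraries and 0.12 without KO 1, adjusted p = 0.38 with all). Slc7a10, Slc7a13 and Slc7a15 were under the filter, and Slc7a12 had no read in any library.

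The promoters of Slc7a11 and Slc7a7 are shown because they were among the 4 members with an ATF4-type match, while Slc7a11 was higher and Slc7a7 lower in every library labelled knockout. Both are from RefSeq (GRCm38.p6), 5′ to 3′ on the gene's strand, with matches of the 4 motifs in capitals. Slc7a11 is at chr3:50443564-50443863 (minus strand) and its capitals are TGATGCAA starting at -66 from the transcription start and the same element on the other strand, read as TTGCATCA, starting at -47. RefSeq lists 5 start sites for Slc7a7, and the one with most matches is at chr14:54417895-54418194 (minus strand), with GACTTTG, the HNF4 letters on the other strand, at -245, TGATGAAA at -141 and TGATGCAA at -1.
Slc7a11: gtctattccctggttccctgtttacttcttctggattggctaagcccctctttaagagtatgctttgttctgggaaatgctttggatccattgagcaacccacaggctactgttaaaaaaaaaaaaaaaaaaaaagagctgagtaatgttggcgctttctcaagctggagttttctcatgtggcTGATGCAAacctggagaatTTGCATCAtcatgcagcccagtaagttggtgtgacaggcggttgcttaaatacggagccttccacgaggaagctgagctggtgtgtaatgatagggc
Slc7a7: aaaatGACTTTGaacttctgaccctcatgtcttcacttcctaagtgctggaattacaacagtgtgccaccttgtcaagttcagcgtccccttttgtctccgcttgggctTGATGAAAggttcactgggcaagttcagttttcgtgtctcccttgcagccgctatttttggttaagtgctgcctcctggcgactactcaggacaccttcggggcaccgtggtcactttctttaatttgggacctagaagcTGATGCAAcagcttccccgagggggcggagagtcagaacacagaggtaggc
Slc1a4 and Slc6a21 were the other members with an ATF4-type match. ATF4 is the transcription factor of the amino acid starvation response, and Slc7a11 is one of its known targets.

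Of the heavy chains, Slc3a2 (4F2hc, CD98), the partner of Slc7a5, Slc7a6, Slc7a7, Slc7a8 and Slc7a11, had 201, 138 and 228 CPM in KO 1, KO 2 and KO 3, against 150.0, 93.4 and 114 CPM in WT 1, WT 2 and WT 3. KO 2 lay below WT 1, so the groups overlapped, at a log2 ratio of 0.66 ± 0.32 (adjusted p = 0.25). Slc3a2 was the most abundant member by mean TPM in the libraries labelled knockout, at 139 ± 46.7, against 83.8 ± 17.3 TPM and rank 5 in those labelled wild-type. By single library it led in KO 1 only, with 185, 91.4 and 139 TPM in KO 1, KO 2 and KO 3. Slc6a8 was above it in KO 2, at 145 TPM, and Slc43a3 in KO 3, at 174 TPM. Slc3a1 (rBAT), the partner of Slc7a9, was under the filter, with 34 reads in the libraries labelled knockout and 28 in those labelled wild-type. It averaged 0.723 TPM in the libraries labelled knockout and 0.629 TPM in those labelled wild-type, where Slc7a9 averaged 16.5 TPM. Slc3a1 shares 601 exon bases with Prepl on the other strand, a gene with 2504 reads over the 6 libraries. Some of the few Slc3a1 reads could therefore belong to Prepl.

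Set against each other per gene length, the light chains had another make-up in each group. Slc7a9 and Slc7a7 together held 13.6%, 23.9% and 5.23% of the summed light-chain TPM in KO 1, KO 2 and KO 3, against 53.6%, 60.2% and 59.6% in WT 1, WT 2 and WT 3. Slc7a5, Slc7a6 and Slc7a11 together held 61.1%, 58.5% and 83.9% in KO 1, KO 2 and KO 3, against 30.5%, 22.8% and 23.6% in WT 1, WT 2 and WT 3. KO 2, whose Slc7a5 and Slc7a8 levels lay among the wild-type libraries, was on the side of KO 1 and KO 3 in this make-up. The sum itself was 134, 51.9 and 111 TPM in KO 1, KO 2 and KO 3, against 75.5, 58.9 and 94.1 TPM in WT 1, WT 2 and WT 3, with overlap. The sets were chosen after their values were seen, so these shares are a description without a test.

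**Figure D2:**
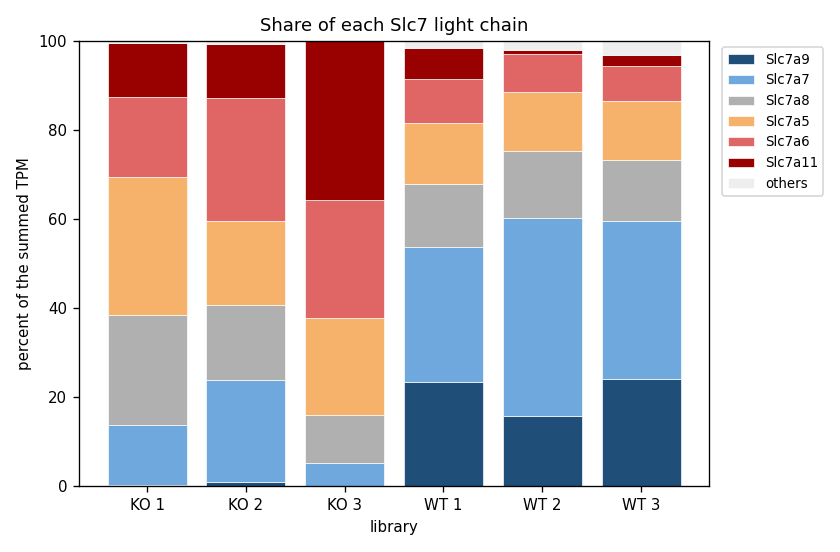
Percent of the summed TPM of the Slc7 light chains in each library, stacked by gene, with the libraries labelled KO on the left and those labelled WT on the right. Slc7a9 and Slc7a7 make up 5.23% to 23.9% of the KO bars and 53.6% to 60.2% of the WT bars.

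The cationic carriers of family Slc7, which work without a heavy chain, split as well. Slc7a4, a relative without an established substrate, had 4.55, 2.75 and 2.25 CPM in KO 1, KO 2 and KO 3, against 5.59, 17.3 and 8.73 CPM in WT 1, WT 2 and WT 3. KO 1 was close to WT 1 but the groups did not overlap, at a log2 ratio of -1.72 ± 0.53 (adjusted p = 0.13). Slc7a4 shares 554 exon bases with P2rx6 on the other strand, a gene with 138 reads over the 6 libraries. Slc7a2 (CAT2), which supplies arginine to macrophages and muscle, had 28.4, 12.8 and 41.0 CPM in the libraries labelled knockout and 12.8, 4.87 and 13.4 CPM in those labelled wild-type. KO 2 lay below WT 3, and the log2 ratio was 1.40 ± 0.54 (adjusted p = 0.18). Slc7a14, a relative on intracellular membranes known from neurons, had 50.0, 6.46 and 25.3 CPM in the libraries labelled knockout and 9.98, 8.99 and 18.9 CPM in those labelled wild-type, a spread of 7.73-fold among the KO libraries alone. Its log2 ratio was 1.11 ± 0.69 (adjusted p = 0.36) and 0.32 without KO 1. Slc7a1 (CAT1) overlapped at a log2 ratio of 0.40 and Slc7a3 was under the filter.

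Among the Slc6 carriers of transmitters and osmolytes, the serotonin and creatine carriers were the lower ones. Slc6a4 encodes the serotonin carrier SERT, which clears serotonin released by enterochromaffin cells and is made by epithelium and serotonin neurons (ENSMUSG00000020838, chr11:76998603-77032340, plus strand). Slc6a4 had 1.53, 6.12 and 0.933 CPM in KO 1, KO 2 and KO 3, against 21.5, 44.3 and 22.5 CPM in WT 1, WT 2 and WT 3. KO 2 was highest among the KO libraries and still below every WT library, and the log2 ratio was -3.35 ± 0.75 (adjusted p = 0.098). Slc6a8, the creatine carrier, had 142, 322 and 79.1 CPM in KO 1, KO 2 and KO 3, against 844, 769 and 781 CPM in WT 1, WT 2 and WT 3. The WT libraries lay within 1.10-fold of each other, the KO libraries spread 4.08-fold below them, and the log2 ratio was -2.14 ± 0.55 (adjusted p = 0.11). By mean TPM Slc6a8 ranked 4 in the libraries labelled knockout, at 88.8 ± 56.1, and 2 in those labelled wild-type, at 382 ± 21.6.

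The other transmitter and osmolyte carriers overlapped. Slc6a7, the proline carrier of brain synapses, had 0.198, 1.14 and 1.32 CPM in KO 1, KO 2 and KO 3, against 1.90, 6.45 and 0.649 CPM in WT 1, WT 2 and WT 3. WT 2 alone made most of its log2 ratio of -1.77 ± 0.99 (adjusted p = 0.31), which was -0.55 without that library. Slc6a6, the taurine carrier, named after its values were seen, had 118, 70.6 and 78.5 CPM in the libraries labelled knockout and 95.3, 104 and 115 CPM in those labelled wild-type. These groups overlapped at a log2 ratio of -0.23 ± 0.28 (adjusted p = 0.63), with a 95% interval of -0.88 to 0.42, and the log2 ratio was -0.48 without KO 1 and -0.14 without KO 2. The remaining tested members of the class, Slc6a9, Slc6a11 and Slc6a17, were at log2 ratios of -0.19, 0.34 and 0.68, of which the signs of Slc6a9 and Slc6a11 turned under some alternatives and Slc6a17 was at 0.14 without KO 1. Of the 15 members of this class, 7 passed the filter and 8 did not, among them the carriers of glycine, dopamine and noradrenaline Slc6a5, Slc6a3 and Slc6a2.

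The small neutral exchangers of family Slc1 did not separate the groups. Slc1a5, the glutamine exchanger ASCT2, had 132, 82.5 and 266 CPM in KO 1, KO 2 and KO 3, against 119.6, 254 and 115 CPM in WT 1, WT 2 and WT 3. KO 3 and WT 2 were the highest libraries, one in each group, and the log2 ratio was -0.03 ± 0.52 (adjusted p = 0.98), with a 95% interval of -1.25 to 1.20. Its sign was not stable: it was 0.12 with limma-voom with quality weights and 0.14 with upper-quartile scaling. Slc1a4, the serine and alanine exchanger ASCT1, overlapped at 14.4, 5.20 and 15.0 CPM in the libraries labelled knockout and 7.31, 8.04 and 10.6 CPM in those labelled wild-type (log2 ratio 0.41 ± 0.46 with all libraries and 0.14 without KO 3, adjusted p = 0.60 with all).

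The sodium-coupled family Slc38 held the highest ratios of all members next to a majority that overlapped. Slc38a3, the system N glutamine carrier SNAT3 (ENSMUSG00000010064, chr9:107650634-107669530, minus strand), had 2.08, 17.8 and 7.07 CPM in KO 1, KO 2 and KO 3, against 0.535, 0.759 and 0.472 CPM in WT 1, WT 2 and WT 3. KO 2 was highest, KO 1 lowest of its group, and the groups did not overlap. The log2 ratio was 3.92 ± 0.83 (adjusted p = 0.094) and 2.91 without KO 2. The 6 pancreatic enzymes given above, from a list of 7 acinar markers, were also highest in KO 2 and were near 0 in the WT libraries. The 7th marker, Cela1, was highest in WT 2, with 20.6, 164 and 11.4 CPM in KO 1, KO 2 and KO 3, against 159, 445 and 125 CPM in WT 1, WT 2 and WT 3. Only 4 of the 7 passed the filter, and Cpa1 was at 0 in KO 3 and in every WT library. In KO 3 the 6 enzymes summed to 2.18 CPM while Slc38a3 was 7.07 CPM, and the part of acinar RNA in the difference was not tested.

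Slc38a4, a system A carrier known from liver and placenta (SNAT4; ENSMUSG00000022464, chr15:96994820-97055956, minus strand), had 3.90, 9.44 and 11.0 CPM in KO 1, KO 2 and KO 3, against 0.951, 0.380 and 1.53 CPM in WT 1, WT 2 and WT 3. The groups did not overlap, with KO 1 lowest among the KO libraries, and the log2 ratio was 3.07 ± 0.66 (adjusted p = 0.095). Slc38a9, the lysosomal carrier that reports arginine to the growth regulator mTORC1, had 18.1, 10.4 and 20.3 CPM in the libraries labelled knockout and 12.1, 8.29 and 11.7 CPM in those labelled wild-type. KO 2 lay among the WT libraries, and the log2 ratio was 0.60 ± 0.35 (adjusted p = 0.33), or 0.38 when KO 3 was left out. Slc38a1 and Slc38a2, the abundant glutamine and alanine carriers of the family, were named after their values were seen and were at log2 ratios of 0.00 and -0.02 with no stable sign, with 95% intervals of -0.92 to 0.93 and -0.73 to 0.70. The remaining tested members, Slc38a6, Slc38a7, Slc38a10 and Slc38a11, were at log2 ratios of -0.39, -0.68, -0.44 and -0.54, and reads of Slc38a6 could be shared with Noct, to which 3240 of its bases are 98.5% identical. Of the 9 tested Slc38 members, 7 overlapped, and Slc38a5 and Slc38a8 were under the filter.

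Family Slc43 was the one class in which every member was higher without overlap, but it has only 3 members. Of all genes tested, 15.0% were higher without overlap. Slc43a3, a carrier of purine nucleobases, had 197, 108 and 361 CPM in KO 1, KO 2 and KO 3, against 96.8, 32.8 and 72.1 CPM in WT 1, WT 2 and WT 3. KO 2 was just above WT 1, and the log2 ratio was 1.72 ± 0.56 (adjusted p = 0.14), or 1.15 when KO 3 was left out. It ranked 2 by mean TPM in the libraries labelled knockout and 8 in those labelled wild-type. Slc43a1 (LAT3), a carrier of branched-chain amino acids, had 11.2, 11.4 and 28.8 CPM in KO 1, KO 2 and KO 3, against 6.24, 4.94 and 6.84 CPM in WT 1, WT 2 and WT 3, so KO 3 was well above the rest. Its log2 ratio was 1.51 ± 0.46 (adjusted p = 0.13), and 0.89 without KO 3. Slc43a2 (LAT4), which lets essential neutral amino acids leave epithelial cells, had 75.5, 35.8 and 38.7 CPM in the libraries labelled knockout and 33.5, 19.8 and 33.6 CPM in those labelled wild-type. Here KO 1 was highest and KO 2 only just above WT 3, with a log2 ratio of 0.79 ± 0.38 (adjusted p = 0.25), or 0.37 when KO 1 was left out.

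**Figure D3:**
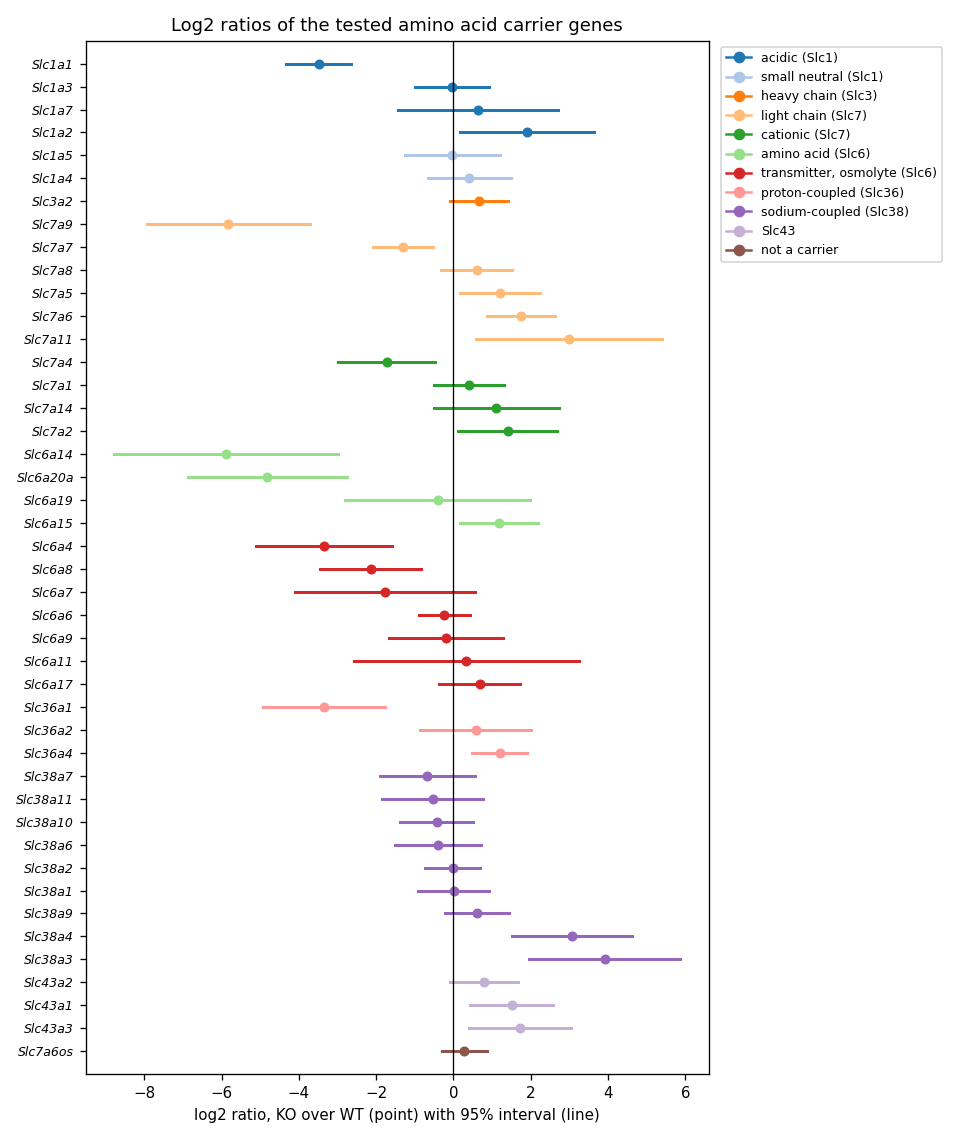
Log2 ratio of KO over WT for the 44 tested members (points) with 95% intervals (lines), coloured by class. Slc6a14, Slc7a9 and Slc6a20a lie farthest to the left, Slc38a3 and Slc38a4 farthest to the right, and no member passed an adjusted p of 0.05.

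The members differed among themselves in which library set them apart. Among the 44 tested members, KO 3 was the KO library farthest from the wild-type mean for 28, KO 1 for 11 and KO 2 for 5. KO 2 was the nearest for 27, KO 1 for 13 and KO 3 for 4. WT 2 was the lowest of all 6 libraries for 15 members and the highest for 8. Slc38a3 went against this order, with KO 2 farthest, and for Slc1a1 the KO libraries lay together.

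**Figure D4:**
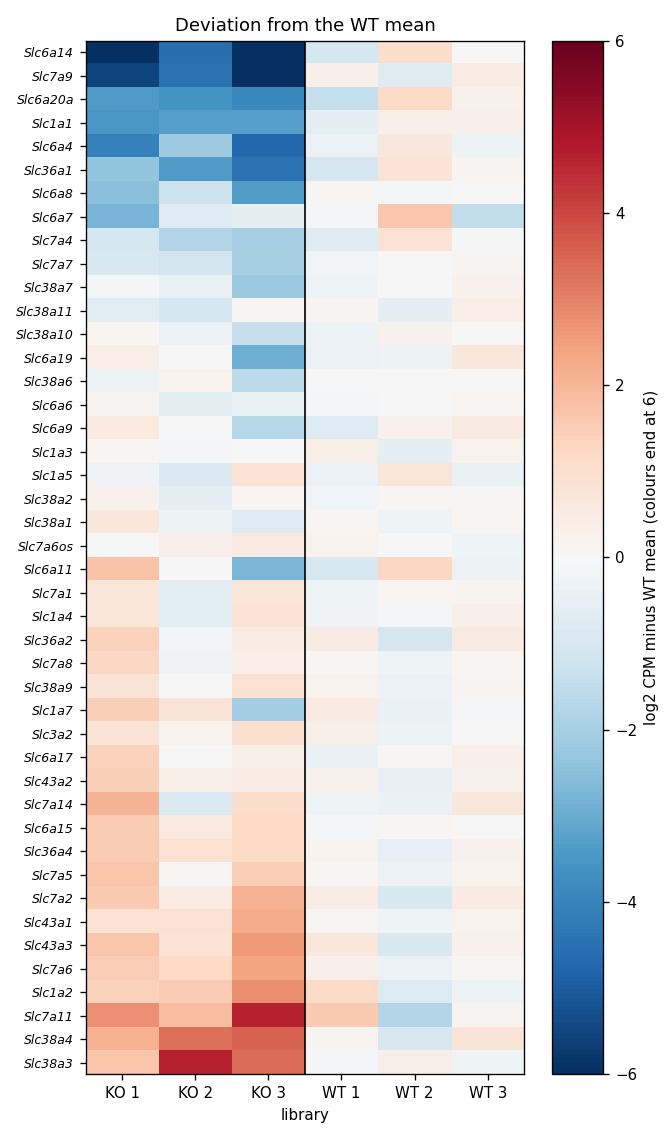
Log2 CPM of each of the 44 tested members minus its mean over the WT libraries, 1 column per library with KO on the left, sorted by the log2 ratio of the fit and with colours ending at 6 in both directions. The top rows are blue in all 3 KO columns, the bottom rows red in all 3, and many rows in between are near white in KO 2.

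Epithelial markers were lower in the same libraries as the lower carriers. All 11 general epithelial markers passed the filter, none was at 0 in any library, and 10 of them were lower in every KO library. So were 8 of 9 absorptive colonocyte and 3 of 8 goblet cell markers, beside 17.3% of all genes tested. At an unadjusted p under 0.05 in the quasi-likelihood test, only 2 of the 11 general markers were lower. At this threshold 7 of the 9 absorptive and 0 of the 8 goblet cell markers were lower, beside 12.3% of all genes tested. The 9 markers of absorptive colonocytes summed to 1008, 7510 and 87.7 CPM in KO 1, KO 2 and KO 3, against 21848, 19681 and 20273 CPM in WT 1, WT 2 and WT 3, and Guca2b among them was at 0 in KO 3. The 8 goblet cell markers summed to 507, 14220 and 29.8 CPM in KO 1, KO 2 and KO 3, against 15303, 14465 and 14039 CPM in WT 1, WT 2 and WT 3. The goblet cell sum of KO 2 was at the wild-type level, but 3 of the 8 markers, Fcgbp, Agr2 and Spink4, were below every WT library in KO 2 as well, and its absorptive sum was lower.

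To set the carriers against the epithelial RNA present, each was divided by Epcam, an adhesion molecule of all epithelial cells, in the same library. Epcam had 164, 1079 and 8.70 CPM in KO 1, KO 2 and KO 3, against 2315, 2403 and 2294 CPM in WT 1, WT 2 and WT 3. Relative to Epcam, KO 2 was below the lowest WT library by 7.18-fold for Slc7a9, 5.20-fold for Slc6a14, 3.87-fold for Slc6a20a, 3.18-fold for Slc1a1 and 2.48-fold for Slc36a1. For Slc6a4 the same quotient was 1.63. The quotients of Slc6a8, Slc7a4 and Slc7a7 were 1.07, 0.948 and 0.903, where a value under 1 puts KO 2 above the lowest WT library. Against the sum of the 11 general epithelial markers in place of Epcam, the quotient of Slc6a8 was 0.839 and that of Slc7a4 was 1.02, so their side of 1 depends on the divisor. The quotients against that sum were 5.62 for both Slc7a9 and Slc6a14, 4.18 for Slc6a20a, 3.44 for Slc1a1, 2.68 for Slc36a1, 1.70 for Slc6a4 and 0.740 for Slc7a7. KO 1 and KO 3 did not follow KO 2: for Slc1a1 the ratio to Epcam was 0.0151, 0.00260 and 0.321 in KO 1, KO 2 and KO 3, against 0.00827, 0.0150 and 0.0154 in WT 1, WT 2 and WT 3. For Slc7a9 the ratios were 0.00151 and 0.000583 in KO 1 and KO 2, against 0.00875, 0.00419 and 0.00982 in WT 1, WT 2 and WT 3, so both KO libraries were below every WT library. KO 3 had 0 Slc7a9 reads beside 112 Epcam reads, which allows a ratio of up to 0.0268, so its place was not detectable at this depth. For Slc6a14 the ratios were 0.0429, 0.0175 and 0.0893 in KO 1, KO 2 and KO 3, against 0.0912, 0.385 and 0.194 in WT 1, WT 2 and WT 3. KO 1 and KO 2 were below every WT library, and KO 3 was close to WT 1: against the sum of the 11 markers it was above it, at 0.0145 in KO 3 and 0.0144 in WT 1. The ratio was computed after the values were seen, for genes picked as lower in every KO library. In KO 3 it divides by an Epcam level of 8.70 CPM. Beyond these ratios, the part of epithelial RNA in the carrier values was not tested.

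**Figure D5:**
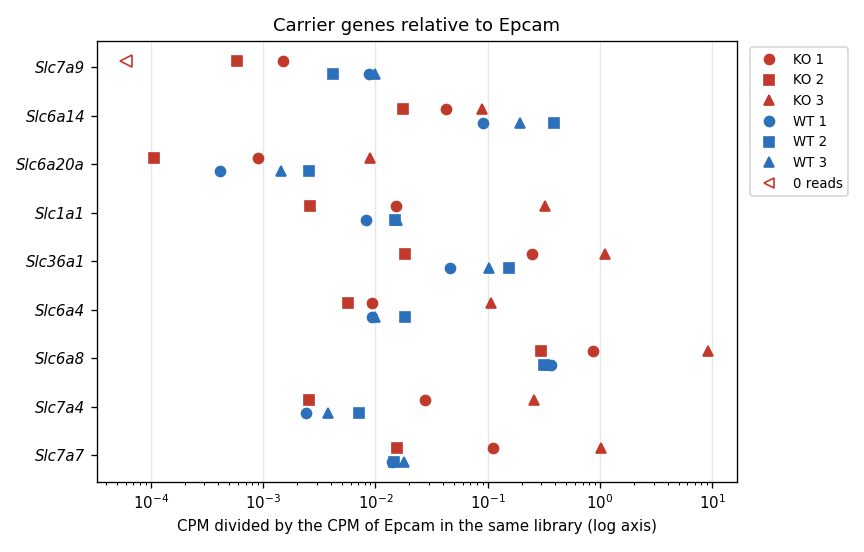
CPM of the 9 carrier genes that were lower without overlap, divided by the CPM of Epcam in the same library, on a log axis, with an open triangle at the left edge for 0 reads. For Slc7a9 and Slc6a14 KO 1 and KO 2 lie left of all WT libraries, while KO 3 has 0 Slc7a9 reads and lies next to WT 1 for Slc6a14, and for Slc36a1, Slc6a8, Slc7a4 and Slc7a7 KO 1 and KO 3 lie to the right of the WT libraries.

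Markers of several other cell types were higher in the libraries labelled knockout, as were the higher carriers, but not those of every type. Log2 ratios were negative for 7 of 10 macrophage and monocyte, 5 of 8 T and NK cell and 7 of 8 smooth muscle markers. They were also negative for 5 of 6 adipocyte, 6 of 7 tested enteroendocrine, 5 of 8 cell cycle and 3 of 6 tested mast cell markers. All 8 B and plasma cell markers overlapped. All 6 tested erythroid markers were positive, with a median log2 ratio of 3.28. The 10 neutrophil markers summed to 1574, 2077 and 7407 CPM in KO 1, KO 2 and KO 3, against 2147, 483 and 954 CPM in WT 1, WT 2 and WT 3, 7 of the 10 were higher at an unadjusted p under 0.05, and Ngp was at 0 in WT 2. Most of the WT sums is Ly6g, at a log2 ratio of -1.55, and the other 9 summed to 1368, 1245 and 7397 CPM in KO 1, KO 2 and KO 3, against 442, 11.1 and 56.0 CPM in WT 1, WT 2 and WT 3. Slc7a11 likewise was highest in KO 3 and lowest in WT 2. The 10 endothelial markers summed to 1039, 482 and 1935 CPM in KO 1, KO 2 and KO 3, against 584, 321 and 604 CPM in WT 1, WT 2 and WT 3, with 5 of 10 higher at an unadjusted p under 0.05. Slc43a3 was also highest in KO 3 and lowest in WT 2. The 10 markers of enteric neurons summed to 1138, 382 and 872 CPM in KO 1, KO 2 and KO 3, against 298, 235 and 427 CPM in WT 1, WT 2 and WT 3, with 8 of 10 higher at an unadjusted p under 0.05. Slc7a14 was likewise highest in KO 1, but at 6.46 CPM in KO 2 it was lowest of all libraries, while the neuronal sum of KO 2 was above WT 1 and WT 2. The 8 markers of enteric glia summed to 256, 168 and 799 CPM in KO 1, KO 2 and KO 3, against 80.1, 44.2 and 92.3 CPM in WT 1, WT 2 and WT 3, with 6 of 8 higher at an unadjusted p under 0.05, and the glial carrier Slc1a2 was also highest in KO 3. The glial carrier Slc1a3 did not follow these markers. It had 4.55, 3.83 and 4.27 CPM in KO 1, KO 2 and KO 3, against 5.35, 2.78 and 4.84 CPM in WT 1, WT 2 and WT 3, and was highest in WT 1. The 9 fibroblast markers summed to 6889, 4284 and 5224 CPM in KO 1, KO 2 and KO 3, against 1974, 1515 and 2607 CPM in WT 1, WT 2 and WT 3, with 4 of 9 higher at an unadjusted p under 0.05. Counted without overlap, 8 of 10 neutrophil, 3 of 10 endothelial, 3 of 10 neuronal, 3 of 8 glial and 5 of 9 fibroblast markers were higher. The shares over all genes tested were 15.0% higher without overlap and 11.8% higher at an unadjusted p under 0.05. The neutrophil, endothelial, glial and erythroid sums were all highest in KO 3 and lowest in WT 2. Among the 44 tested members, KO 3 was the highest library for 13 and WT 2 the lowest for 15. A shared order of libraries therefore cannot tell these cell types apart as the source of a carrier. No endothelial, neuronal, glial or fibroblast marker was at 0 in any library, and the part of these cells in the carrier values was not tested.

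The genes around the carriers were read from lists with the same fit, in which no gene passed an adjusted p of 0.05, and were counted at an unadjusted p under 0.05. At this threshold 11.8% of all genes tested were higher and 12.3% were lower. These shares stand beside the counts of every list below, and the lists were not tested as sets. Of 9 tested apical partners and peptidases, which anchor carriers or cut peptides into amino acids, 4 were lower and 1 was higher, with a median log2 ratio of -1.64. Mep1a, the meprin protease subunit of the brush border, had 2.22, 8.46 and 0.0777 CPM in KO 1, KO 2 and KO 3, against 73.6, 171 and 79.1 CPM in WT 1, WT 2 and WT 3 (log2 ratio -4.90 ± 1.20, adjusted p = 0.10). It was lower in every KO library. Xpnpep2, a membrane aminopeptidase that removes a residue before proline, was at a log2 ratio of -4.00 ± 1.06. It had 0 reads in at least 1 library, so the size of this ratio is uncertain. Of 10 tested carriers of peptides, aromatic amino acids and vesicles, 1 was lower (Slc17a9, which loads ATP into vesicles, -1.63 ± 0.53) and 1 higher (Slc18a2, which loads monoamines, 1.52 ± 0.62), with a median of -0.58. The peptide carrier Slc15a1 had 7.56, 59.4 and 0.544 CPM in KO 1, KO 2 and KO 3, against 221, 174 and 166 CPM in WT 1, WT 2 and WT 3, without overlap (log2 ratio -3.05 ± 1.31, adjusted p = 0.21).

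Enzymes that use the carried amino acids were mixed. Of 15 tested enzymes of glutamine and glutamate, 2 were higher and 3 lower, beside 11.8% and 12.3% of all genes tested. Their median log2 ratio was 0.05. Abat, which breaks down GABA, had 26.6, 30.3 and 17.3 CPM in KO 1, KO 2 and KO 3, against 168, 429 and 259 CPM in WT 1, WT 2 and WT 3 (log2 ratio -3.53 ± 0.45, adjusted p = 0.094). Gfpt1, which passes glutamine nitrogen to hexosamines, had 116, 314 and 39.6 CPM in KO 1, KO 2 and KO 3, against 1149, 1474 and 1274 CPM in WT 1, WT 2 and WT 3 (log2 ratio -3.05 ± 0.75, adjusted p = 0.10). Both were lower in every KO library, while the glutaminase gene Gls2 was at 1.60 ± 0.51. Of 14 tested enzymes of glutathione, 1 was higher and 4 were lower, with a median of 0.30. Gclc, the catalytic subunit of the first step of glutathione synthesis, had 127, 102 and 179.8 CPM in KO 1, KO 2 and KO 3, against 57.0, 76.1 and 56.3 CPM in WT 1, WT 2 and WT 3 (log2 ratio 1.11 ± 0.30, adjusted p = 0.11). The glutathione synthetase gene Gss, for the next step, was at -1.80 ± 0.56 and the transferase gene Ggt6 at -4.31 ± 0.83, so these enzymes of one pathway stood on both sides.

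Of 14 tested enzymes of arginine and polyamines, 6 were higher and 1 was lower, beside 11.8% and 12.3% of all genes tested. Their median log2 ratio was 0.49. Arg1, the arginase of liver and of some myeloid cells, had 29.3, 32.5 and 52.6 CPM in KO 1, KO 2 and KO 3, against 4.75, 0.253 and 2.06 CPM in WT 1, WT 2 and WT 3 (log2 ratio 4.01 ± 0.88, adjusted p = 0.098). The mitochondrial arginase gene Arg2 was at 2.44 ± 0.71 and Ass1, which rebuilds arginine from citrulline, at 1.02 ± 0.27, all 3 without overlap. Of 11 tested enzymes of serotonin and kynurenine, 1 was higher and 2 were lower, with a median of -0.30. Maoa, which degrades serotonin, had 27.9, 45.5 and 19.4 CPM in KO 1, KO 2 and KO 3, against 152, 625 and 227 CPM in WT 1, WT 2 and WT 3 (log2 ratio -3.43 ± 0.64, adjusted p = 0.094), so it was lower in every KO library together with the serotonin carrier Slc6a4. Tdo2, which opens the tryptophan ring, was at 4.19 ± 1.21 and Afmid, the next enzyme, at -1.25 ± 0.44. Tdo2 had 0 reads in at least 1 library, so the size of its ratio is uncertain.

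Lists on amino acid stress and sensing had medians near that of all genes. Of 19 tested genes of the ATF4 response, 4 were higher and 1 was lower, beside 11.8% and 12.3% of all genes tested. Their median log2 ratio was 0.15. Cebpb, a transcription factor partner of ATF4 that is also induced in inflammation, was at 1.93 ± 0.61, Atf5, a transcription factor of the stress response, at 1.13 ± 0.30, and Cth, which makes cysteine, at -2.86 ± 0.66. Of 23 tested genes of amino acid sensing by mTORC1, 2 were higher and none was lower, with a median of 0.12. Sesn1, a leucine-binding sestrin, had 80.7, 57.3 and 56.7 CPM in KO 1, KO 2 and KO 3, against 27.6, 22.3 and 27.4 CPM in WT 1, WT 2 and WT 3 (log2 ratio 1.33 ± 0.25, adjusted p = 0.094), and all 3 KO libraries were above all 3 WT libraries. Rragd, a lysosomal GTPase of the same machinery, was at 1.34 ± 0.48. Of 19 tested cytosolic tRNA synthetases none was higher and 2 were lower (Wars -1.54 ± 0.54 and Kars -0.72 ± 0.30), with a median of 0.05. Branched-chain catabolism had 2 higher and 3 lower of 17 with a median of -0.05, and serine, glycine and one-carbon enzymes 1 higher and 1 lower of 12 with a median of 0.41.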

How the data were processed

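Poly-A RNA of mouse distal colon was sequenced in 6 libraries, and the authors deposited whole-number read counts per gene with gene coordinates and gene length. Per the labels' protocols, adaptor, low-quality and poly-N reads had been removed first. Per the submitters' processing notes, which give no roles, the tools were featureCounts 1.5.0-p3, HISAT2 2.0.5, StringTie 1.3.3b and DESeq2, and the build GRCm38 (mm10). The strand setting, annotation release and handling of multi-mapping reads were not given in the sources used here: overlapping or near-identical genes could exchange reads. All 64 members were found in GENCODE M21 for GRCm38, 62 with the same start and end.

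The fit used edgeR 4.0.16 in R 4.3.3. After filterByExpr (minimum count 10, minimum total 15) and TMM scaling, KO and WT libraries were compared by the robust quasi-likelihood F test over 16861 genes, with no covariate and with Benjamini-Hochberg adjustment over all of them at a threshold of 0.05. CPM uses the TMM-scaled library sizes, and TPM uses the deposited gene length. Counting error limits low values: a library with 0 reads of a gene allows up to 3. The test was checked on simulated counts. No library was a copy of another: the chi-square of same-group pairs, divided by its degrees of freedom, was 50.7 to 253. All 6 libraries carry the same date label, so no batch split could be made.

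Alternatives were DESeq2 1.42.0, limma-voom (limma 3.58.1) with and without quality weights, RLE and upper-quartile scaling, no filter, at least 10 reads in every library, protein-coding genes only, no robust option, a replicate block, each library left out, and KO 3 and WT 2 left out together. The members, lists, classes and alternatives were chosen with earlier results of these data known. Named genes were Slc1a1, the up to 3 tested members with the smallest p in each class, Slc7a6os and up to 3 genes of each list; others are said to be named after their values were seen or stand only to account for every member. Slc6a21 was placed in its class afterwards. Promoters of 46 members came from RefSeq (GRCm38.p6). All symbols of the lists were matched, Tmem27 under the name Cltrn. Some items are not reported here.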

Additional observations from a re-analysis of the deposited data

How the results depend on the processing

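The count of 0 carriers at an adjusted p under 0.05 held with RLE and upper-quartile scaling, limma-voom, at least 10 reads in every library, protein-coding genes only, no robust option and without KO 3 and WT 2 together. It was 15 with DESeq2, 9 with limma-voom with quality weights, 3 without a filter (beside 0.622% of all genes), and 0 to 9 with 1 library left out, the 9 coming without KO 2. The carriers higher at an unadjusted p under 0.05, 11 as reported, were 5 without KO 3 and WT 2 together (10.2% of those tested, beside 4.88% of all genes) and 6 to 17 with 1 library left out (11.8% to 37.0%, beside 5.58% to 13.9% of all genes). Those higher without overlap, 10 as reported, were 12 to 21 with 1 library left out (23.5% to 45.7%, beside 16.7% to 23.7% of all genes). The carriers lower at an unadjusted p under 0.05, 9 as reported, were 7 with at least 10 reads in every library and 8 with quality weights. They were 9 under each other alternative run, but the shares moved. Without KO 2, 9 carriers were 19.6% of those tested, beside 17.4% of all genes. Without a filter they were 14.3%, beside 7.39% of all genes. Slc1a1, -3.48 on the log2 scale as reported, was -3.52 with DESeq2 (adjusted p = 4.02e-12), -3.59 with limma-voom with quality weights (0.0260) and -3.54 without a filter (0.00897), and -3.75 to -3.37 with 1 library left out, past the threshold only without KO 2. Over all its alternatives the adjusted p of Slc1a1 ranged from 4.02e-12 to 0.302. Signs turned for 8 tested genes, all of which overlapped. Slc1a7 was -0.046 to 1.12 with 1 library left out, negative without KO 1. Slc1a5 was 0.12 with quality weights, 0.14 with upper-quartile scaling and -0.64 to 0.41 with 1 library left out, positive without KO 1 (0.09), KO 2 (0.25) or WT 2. Slc6a19 was -1.01 to 0.10 with 1 library left out, positive without KO 3 or WT 3 (0.06). Slc1a3 was 0.011 with limma-voom, 0.012 with the replicate block, 0.11 with upper-quartile scaling and -0.30 to 0.12 with 1 library left out. Slc6a9 was 0.29 without KO 3 and WT 2 together and -0.69 to 0.20 with 1 library left out. Slc6a11 was -0.47 with limma-voom, -0.46 with the replicate block and -1.22 to 1.33 with 1 library left out. Slc38a2 was 0.00028 with quality weights, 0.13 with upper-quartile scaling and -0.16 to 0.14 with 1 library left out. Slc38a1 was -0.029 with DESeq2, -0.023 with RLE scaling, -0.0039 with at least 10 reads in every library, -0.12 with limma-voom and with the replicate block, -0.047 without a filter, -0.0027 with protein-coding genes only and -0.51 to 0.24 with 1 library left out. Upper-quartile scaling moved the median of all genes to 0.21 and that of the carriers to 0.45, and the carriers' median was 0.07 with limma-voom, 0.10 with the replicate block and 0.09 to 0.49 with 1 library left out. The cause of these differences was not tested. Same-numbered libraries deviated from their group means with correlations of -0.20, 0.09 and -0.08, and KO 1 with WT 3 with 0.34. So few libraries can neither show nor exclude a pairing by number, on which the labels say nothing. The replicate block called 0 carriers and 3 of all genes. At an unadjusted p under 0.05 it had 10 carriers higher and 9 lower. No counts of overlap were made for limma-voom, the replicate block and the fit without the robust option, which use the same CPM. Carriers under the filter had 0 to 76 reads in all, where a difference was not detectable at this depth.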
